A study of Mus musculus with 8 samples.

Results

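Genes on opposite strands can share stretches of exon. In the liver transcript tables examined here, 2288 of 159766 exons (1.43%) of the main transcripts of 24143 named genes overlapped an exon of another named gene's main transcript on the other strand by at least 1 base. The main transcript was the one with the largest summed level over all libraries. Of these exons, 1001 had 20 or more recovered reads in 2 or more libraries, and these 1001 exons, of 839 genes in 484 pairs, are the subject. The other 1287 did not reach that number. The second-highest library of the 25 exons just inside the threshold held 20 reads, and that of the 19 exons just outside held 19. For comparison, 46963 exons that overlapped no exon of another named gene's main transcript on either strand passed the same filter. They can still overlap other transcripts.

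All 8 libraries came from wild-type C57/BL6 mouse liver, each from equal RNA of 3 animals pooled at 1 circadian time (CT), from CT23 in steps of 6 h to CT65. The animals had been kept for a week in light-dark cycles and then in constant darkness for a day before collection. The times span 2 internal days, so each of 4 clock phases was sampled on both days, by 1 library each, and sex and age are not in the labels. Polyadenylated RNA was selected, and the double-stranded cDNA kit named in the protocol does not mark strand. In these bulk samples, fewer cells of a type and less RNA per cell cannot be told apart. A level of 1 RPKM (reads scaled by exon length and library size) over 1 kilobase stood for 11.7 to 13.9 reads, and at CT35, the deepest library, for 22.9. Spliced reads numbered 5270743 to 6227130 per library, and 14749911 at CT35. Of 10 hepatocyte markers, 9 averaged 1 or more RPKM and together reached 106340 to 200994 RPKM per library. The 5 markers each of Kupffer, endothelial, stellate and bile duct cells were all at 1 RPKM or more, with sums from 30.8 to 139 RPKM. Of 5 lymphocyte markers 1 reached 1 RPKM, and none of 5 markers of other tissues did.

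Overlapping genes form natural antisense pairs. They lie tail to tail where their 3′ ends overlap, head to head where their 5′ ends overlap, or with the span of the shorter inside that of the longer. A read that falls on shared bases carries the sequence of both genes, and without strand information an unspliced read there cannot be told apart between them. A spliced read can, because the borders of an intron belong to 1 of the genes. In liver such pairs include clock genes, secreted plasma proteins and enzymes of lipid and drug metabolism.

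Tail-to-tail pairs were the most common, with 593 exons (59.2%) in 290 pairs. Head-to-head pairs held 180 exons in 100 pairs, and pairs in which the span of the shorter gene lay within the longer held 228 exons in 94 pairs. Accordingly 526 members were last exons, 266 internal, 182 first, and 27 belonged to genes of a single exon. Both genes coded for protein for 527 members (52.6%), 250 were coding exons opposite a noncoding gene, and 215 were exons of noncoding genes opposite a coding gene. The shared stretch had a median of 135 bases (3 to 2749), and 258 exons (25.8%) lay wholly within it. In 369 pairs (76.2%) both genes had a member.

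The sequences of 7 shared stretches follow. Values below turn on the first 6, and that of Elovl3 is given as an example of a very short one. They were read from GENCODE M21 transcripts (GRCm38) by exon length and position. Each was kept only where its reverse complement stood in a transcript of the partner. The letters run 5′ to 3′ on the strand of the gene named first, and capitals mark the bases shared with the partner. The first 5 are whole coding exons, and the last 2 give the shared bases alone.
Cyp2f2 exon 6, shared with Gm15883: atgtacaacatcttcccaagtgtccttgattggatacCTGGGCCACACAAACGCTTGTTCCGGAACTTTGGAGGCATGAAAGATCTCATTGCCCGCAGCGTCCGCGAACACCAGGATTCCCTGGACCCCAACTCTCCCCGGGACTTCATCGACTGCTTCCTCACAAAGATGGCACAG
Pzp exon 16, shared with Gm10069: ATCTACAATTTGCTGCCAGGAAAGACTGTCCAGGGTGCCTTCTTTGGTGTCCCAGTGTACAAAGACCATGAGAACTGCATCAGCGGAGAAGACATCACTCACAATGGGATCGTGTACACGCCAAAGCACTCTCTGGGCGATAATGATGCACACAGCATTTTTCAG
Adh1 exon 3, shared with Gm16559: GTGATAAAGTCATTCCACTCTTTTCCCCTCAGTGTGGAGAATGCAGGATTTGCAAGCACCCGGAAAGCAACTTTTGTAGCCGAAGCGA
Abcb11 exon 22, shared with Gm13613: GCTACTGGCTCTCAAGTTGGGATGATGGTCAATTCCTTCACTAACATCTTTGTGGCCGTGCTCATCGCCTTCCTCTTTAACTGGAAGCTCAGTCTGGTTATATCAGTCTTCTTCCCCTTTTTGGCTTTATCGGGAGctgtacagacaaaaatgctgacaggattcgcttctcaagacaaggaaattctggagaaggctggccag
Cry2 exon 4, shared with D930015M05Rik: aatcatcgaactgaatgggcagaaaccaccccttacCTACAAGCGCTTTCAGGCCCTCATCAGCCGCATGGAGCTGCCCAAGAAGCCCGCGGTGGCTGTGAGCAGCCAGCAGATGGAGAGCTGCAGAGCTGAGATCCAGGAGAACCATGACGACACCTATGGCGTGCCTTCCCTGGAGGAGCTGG
Rrp9 exon 1, shared with Parp3: GTTTTGGAGCCATGGTTCTC
Elovl3 exon 4, shared with Pitx3: TTGACAGTC
In mm9 the shared bases lie at chr7:27914773-27914912 (Cyp2f2), chr6:128452194-128452358 (Pzp), chr3:137945400-137945487 (Adh1) and chr2:69099488-69099623 (Abcb11). Those of Cry2 lie at chr2:92263035-92263183, those of Rrp9 at chr9:106378294-106378313 and those of Elovl3 at chr19:46210176-46210184. The first 5 partners are noncoding transcripts laid across coding exons. The Rrp9 stretch joins the first exon of Rrp9 and exon 2 of Parp3, both coding genes, and the Elovl3 stretch joins 3′ ends.

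Exons that lay inside an exon of the other strand never held more reads than it did. Each of the 258 wholly covered members lay inside 1 exon of its partner. In all 2064 library values of these exons, the inner exon held no more reads than the outer exon of the opposite gene. In 194 of them both held exactly the same number. Where reads are counted without regard to strand, each read on an inner exon also falls on the outer one. The inner exon then cannot hold more, so this count had no other possible outcome under such counting. The inner exon had a median of 14.6% of the bases and 63.8% of the reads of the outer one. Among the 91 for which the other exons of both genes could be measured, the gene of the inner exon had the higher level per length in 65.

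**Figure D1:**
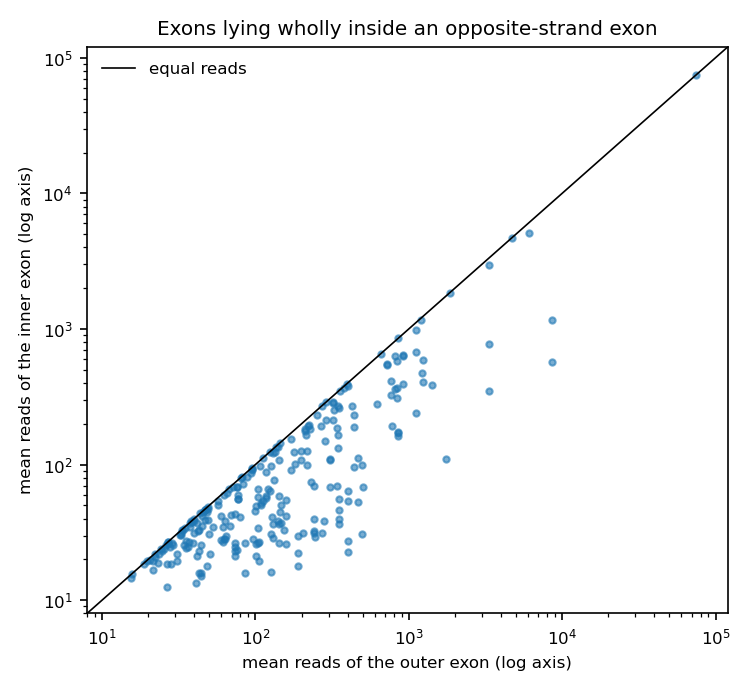
Mean reads per library of 258 inner exons (vertical, log axis) against those of the opposite-strand exon around each (horizontal, log axis), 1 point per exon. No point lies above the line of equal reads, and the highest, Serpina1c exon 4, lies close to it.

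Pzp, a plasma protease inhibitor of the alpha-2-macroglobulin family, and the noncoding Gm10069 on the other strand show this exon by exon. Pzp exon 16 held 3730, 4887, 8991, 3336, 4458, 4445, 4191 and 3547 reads from CT23 to CT65. Exon 4 of Gm10069, which contains it, held 3732, 4887, 8991, 3336, 4459, 4445, 4192 and 3547. The counts were equal in 5 libraries and differed by at most 2 reads in the other 3.

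The same bases had very different neighbours. The non-overlapping exons of Pzp averaged 4063 RPKM, and those of Gm10069 averaged 1.17 RPKM. Spliced reads across the Pzp introns numbered 90678 to 153371 per library, and those across Gm10069 introns 0 or 1. No spliced read in any library touched the junctions of either shared Gm10069 exon. On these exons the tables nevertheless list Gm10069 at 2580 RPKM (exon 3) and 1696 RPKM (exon 4).

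**Figure D2:**
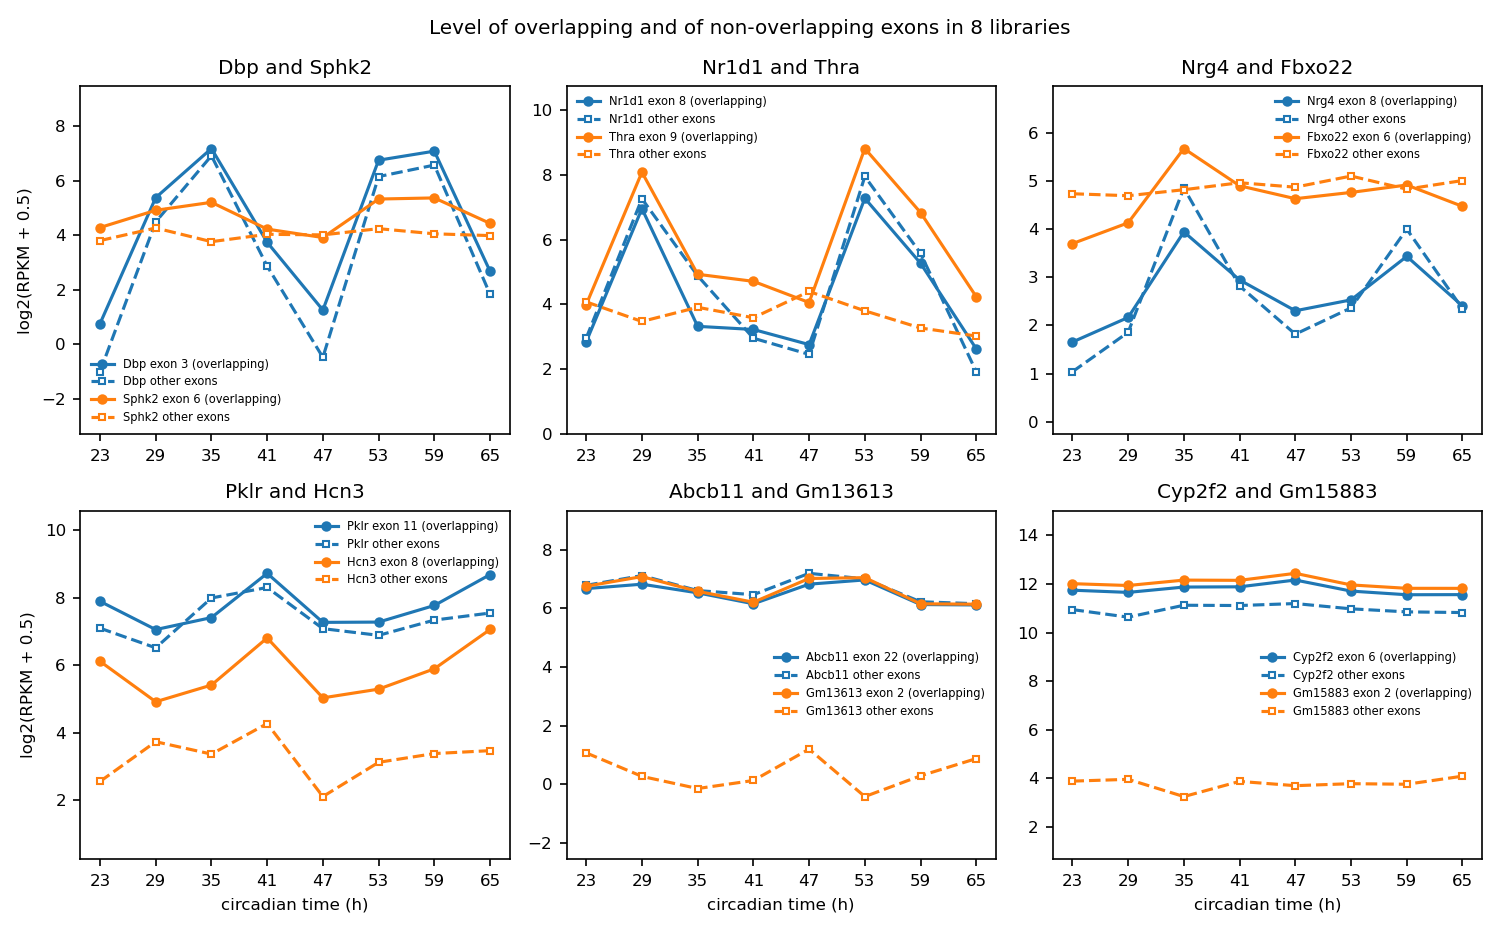
Level over the 8 libraries, as log2(RPKM + 0.5) against circadian time in hours, for 6 pairs. Filled points and solid lines are the overlapping exon and open squares and dashed lines the non-overlapping exons of the same gene. In the Dbp, Nr1d1 and Nrg4 panels the overlapping exon of the partner (orange, solid) leaves its own other exons, and in the Abcb11 and Cyp2f2 panels both overlapping exons run together far above the other exons of the noncoding gene.

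Across the members, the level of a shared exon could be set against the other exons of its own gene for 664 and against those of the partner for 623, and against both for 369. The remaining 337 had no measurable non-overlapping exon of their own. Of these, 106 had no such exon at all, 174 were noncoding and 161 coding. The median member was lower than the other exons of its own gene by 0.13 on the log2 scale (SD of the median over the 8 libraries 0.07). The median of 45622 non-overlapping exons was 0.33. That gap was not seen within each exon position. Last exons had medians of -0.42 (341 members) and -0.45 (7202 non-overlapping), internal exons 0.55 and 0.51, and first exons -0.42 and -0.54.

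The sign of the median depended on the choice of members. It was 0.07 without the filter on reads and 0.22 for the 331 members with 50% or more of their bases shared. Members of noncoding genes stood at 1.65 (44 exons), against 0.26 for 162 non-overlapping noncoding exons. Of the 664 members compared, 61 (9.19%) were 4-fold or more above the other exons of their gene, against 5.78% of non-overlapping exons. Of noncoding members 43.2% were, against 14.2%. Both the exon and the other exons of its gene had to pass the filter on reads. In a shared exon, reads of the partner can count towards it, so a weak gene can enter where that exon is high. How much of these contrasts comes from the filter was not tested.

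The median difference from the own gene was larger where the partner would add more relative to the own gene. For the 369 members with both genes measured, the expected level was taken as the other exons of the own gene plus those of the partner over the shared part. Where the partner would add under 0.1 on the log2 scale (107 exons), the median member lay 0.83 below its own gene. Where it would add 0.1 to 1 (165 exons) the median was -0.32, where it would add 1 to 2 (41 exons) it was 0.44, and where it would add 2 or more (56 exons) it was 2.69.

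Over the 369 exons the expected and the observed rise had a Pearson correlation of 0.773 and a Spearman correlation of 0.595. This is a description across exons, which are not independent replicates, and both axes contain the level of the own gene. The filter on reads of the shared exon applies here too, and its part in the rise across classes was not tested. The level lay nearer to the sum of both genes than to the own gene alone for 149 of 369 (40.4%), from 22.4% in the lowest class to 85.7% in the highest. With the transcript of most reads taken as the main one, which gives 884 such exons, the share was 27.4%. In the lowest class the sum lay above the own gene by a median of only 0.03 on the log2 scale. There the count turns largely on the sign of the exon's difference from its own gene. No such count was made for non-overlapping exons. The median difference between the exon and the sum was -0.81 on the log2 scale. From the lowest to the highest class it was -0.88, -0.70, -0.81 and -0.86, so the median exon lay below the sum in every class.

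**Figure D3:**
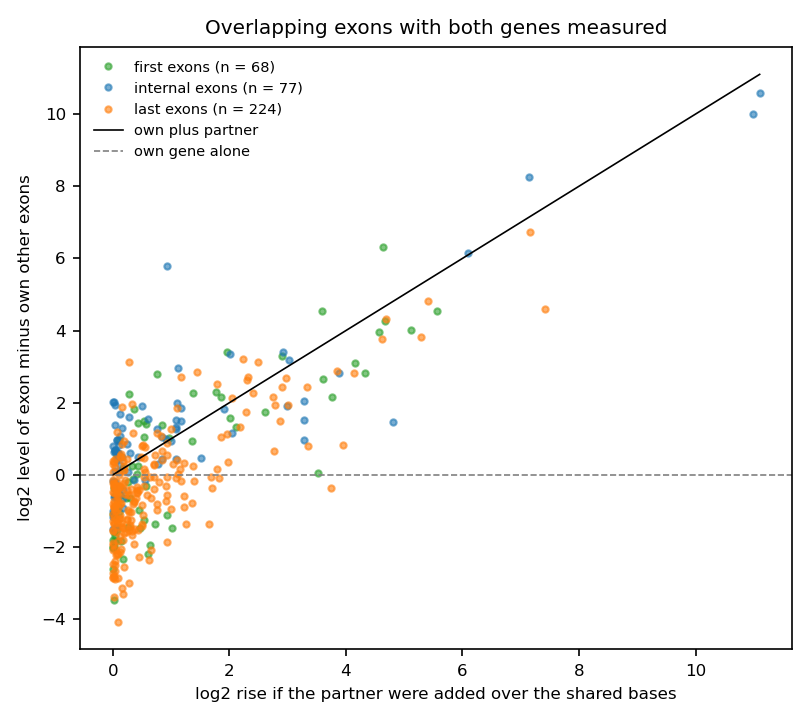
Observed log2 difference between an overlapping exon and the other exons of its gene (vertical) against the log2 rise expected if the partner's level were added over the shared bases (horizontal), for 369 exons coloured by position. Exons of small expected rise scatter around and below 0, and those of expected rise above 2 lie mostly between the line of the own gene and the line of the sum.

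The course over time was compared as well, against the same other exons of both genes. A member's log2 course over the 8 libraries, centred on its mean, was nearer to the partner's other exons than to those of its own gene for 152 of 369 (41.2%). Of 1471 non-overlapping exons of the same genes 239 (16.2%) were nearer to the partner. By the same 4 classes of expected contribution the shares among members were 21.5%, 35.2%, 65.9% and 78.6%. Leaving out any library gave between 40.9% and 42.1% over all members. The classes rest on the level of the partner relative to the own gene, so in the highest class the own gene is the weaker one. The course of a weak gene is noisier, and the 16.2% was not split by class. How much of the rise across classes comes from this was not tested.

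**Figure D4:**
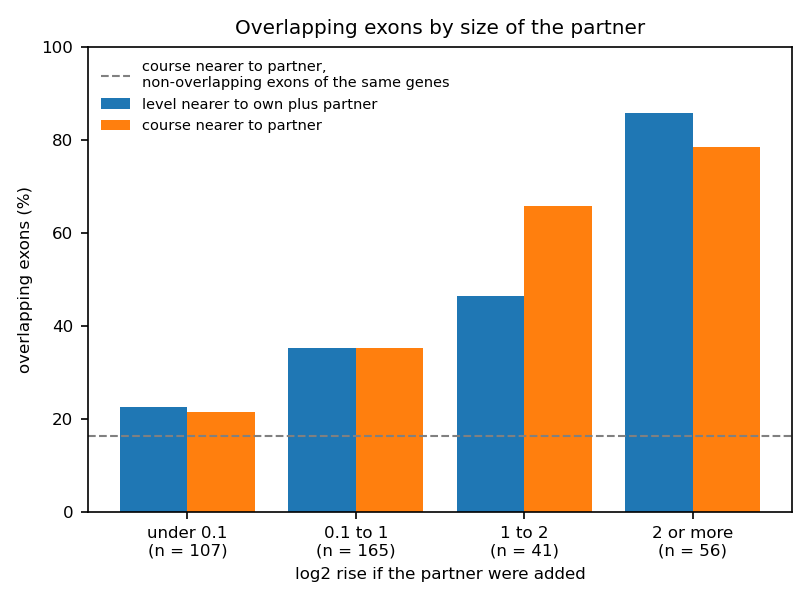
Share of overlapping exons (%) whose mean level was nearer to the sum of both genes than to the own gene (blue) and whose course was nearer to the partner (orange), by the log2 rise expected from the partner. Both shares are lowest in the first class (22.4% and 21.5%) and highest in the last (85.7% and 78.6%). The dashed line marks the 16.2% of non-overlapping exons whose course was nearer to the partner, not split by class.

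Rhythm was tested as a 24-h component, a cosine and a sine fitted to the 8 libraries with limma on log2(RPKM + 0.5) and adjusted over all 48458 exons that passed. It is given as the ratio of peak to trough of the fitted curve and the clock hour of its peak. With 1 pooled library per time, p-values measure the spread of these pools around the curve. Of the members 8 of 1001 (0.799%) were called at an adjusted p under 0.05, against 0.885% of all exons tested. At an unadjusted p under 0.05 there were 106 (10.6%), against 11.7%. The median member had a peak-to-trough ratio of 1.39, and the median exon tested 1.47. The number called was between 3 and 10 when 1 library was left out, and 9 without CT35.

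The 8 called exons belonged to Dbp, Elovl3, Pitx3, Nr1d1, Cebpd, Nr2c2ap, Asap2 and Phospho1, and were named after their values were seen. With TMM rescaling 6 were called and with edgeR on the recovered reads 12, while without the filter on reads none was. The share over all exons was not worked out under these settings. Those of Dbp, Elovl3 and Pitx3 were called with every library left out in turn. Those of Asap2, Nr2c2ap, Phospho1, Cebpd and Nr1d1 were lost under the leave-out of 4 or more of the 8 libraries, taken in turn, and that of Nr1d1 also under TMM rescaling.

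The direct test of a member against its own gene, the 24-h component of the difference, called 0 of 664 members with limma, and 0% of all 46474 exons tested. At an unadjusted p under 0.05 there were 43 members (6.48%), against 3.41% of all exons tested and 3.36% of non-overlapping exons. Last exons made up 341 of the 664 members and 7202 of the 45622 non-overlapping exons, and these shares were not split by exon position. By class of expected contribution the shares were 3.74%, 7.88%, 17.1% and 14.3%. Leaving out 1 library gave 5.31% to 8.09%. The 24-h component of the difference from the partner was called for 2 of 623 members (0.321%), the exons shared by Dbp and Sphk2, and reached an unadjusted p under 0.05 for 57 (9.15%).

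Sphk2, which makes the lipid signal sphingosine 1-phosphate, shares 450 bases of its last exon with the last exon of Dbp, a D-box transcription factor and clock output gene (chr7:52965035-52965484). Sphk2 exon 6 read 19.0, 29.8, 36.5, 18.3, 14.6, 39.8, 40.9 and 21.2 RPKM from CT23 to CT65. Elsewhere in Sphk2 the exons read 13.5, 18.8, 13.1, 15.9, 15.7, 18.5, 16.1 and 15.4 RPKM. The exon was high at CT29, CT35, CT53 and CT59 and low at the other 4 times, and the other exons did not split that way.

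The difference between exon 6 and the rest of Sphk2 had a peak-to-trough ratio of 1.31 ± 0.27 (log2, SE; unadjusted p = 0.0028, adjusted p = 0.996). Its difference from the other exons of Dbp, whose levels ranged from 0 to 121 RPKM, was 6.66 ± 0.65 (adjusted p = 0.0031). Dbp exon 3 itself ranged from 1.19 to 145 RPKM, peaked at clock hour 9.3, and held 7 reads at CT23, where the other exons of Dbp held 0. Its difference from Sphk2 was 6.66 ± 0.50 (adjusted p = 0.00062).

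Nrg4, a secreted ligand of ERBB4, and Fbxo22, an F-box protein of a ubiquitin ligase, lie tail to tail and share 166 bases. Fbxo22 exon 6, wholly covered, read 12.5, 17.03, 50.6, 29.4, 24.3, 26.6, 29.7 and 21.7 RPKM. The other Fbxo22 exons read 25.4 to 33.9 RPKM. Nrg4 exon 8 ran from 2.65 RPKM at CT23 to 14.9 at CT35 and 10.3 at CT59. Elsewhere Nrg4 ran from 1.56 to 28.4 RPKM, with a 24-h component (peak-to-trough ratio 3.03, log2, adjusted p = 0.021, lost without 3 of the 8 libraries) that peaked at hour 11.6. Spliced reads of Nrg4 were called as well (adjusted p = 0.0012), and those of Fbxo22 were not (adjusted p = 0.64). Exon 8 of Nrg4 swung less than the rest of its gene, by 1.30 ± 0.25 (log2, unadjusted p = 0.0016, adjusted p = 0.996). Its mean log2 difference from the rest of Nrg4 was 0.04, and 0.17 without CT35. Its partner exon differed from the rest of Fbxo22 with an unadjusted p of 0.044.

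Nr1d1, the heme receptor REV-ERBα that represses clock genes, and Thra, the thyroid hormone receptor α, share 130 bases. Thra exon 9, wholly inside exon 8 of Nr1d1, read 15.4 RPKM at CT23 and 451 at CT53, while the other Thra exons read 7.60 to 20.55 RPKM, and only 3 spliced reads reached that exon in 8 libraries. Its 24-h component had an adjusted p of 0.051, and it was called without CT35 or without CT41.

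Pklr, the pyruvate kinase of liver, and Hcn3, a cyclic-nucleotide-gated ion channel, share 521 bases of their last exons. Hcn3 exon 8 held 1994, 795, 2140, 2903, 924, 1069, 1542 and 4102 reads, yet no library had a spliced read at any Hcn3 intron. The exon was highest at CT41 and CT65 (112 and 133 RPKM) and lowest at CT29 and CT47 (29.7 and 32.2). Pklr exon 11 had its 2 highest values at the same times (422 and 411 RPKM). The other exons of Hcn3 averaged 9.90 RPKM and those of Pklr 175 RPKM. Spliced reads of Pklr had a 24-h component (peak-to-trough ratio 2.83, peak at hour 15.7, edgeR adjusted p = 0.023, lost without 4 of the 8 libraries). Neither shared exon was called (adjusted p = 0.11 for both).

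Gm13613 is a noncoding transcript across Abcb11, the bile salt export pump. Its exon 2 read 108, 135, 95.3, 73.5, 129, 132, 70.8 and 70.1 RPKM. Exon 22 of Abcb11 read 102, 113, 91.9, 70.8, 113, 125, 69.6 and 68.9 RPKM. Both were highest at CT29, CT47 and CT53 and lowest at CT59 and CT65. Elsewhere Gm13613 averaged 0.93 RPKM, with no spliced read, and Abcb11 averaged 107 RPKM. The 24-h component of Gm13613 exon 2 was 1.03 ± 0.31 (log2, adjusted p = 0.28) and that of Abcb11 exon 22 was 0.87 ± 0.30 (adjusted p = 0.39).

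Cyp2f2, a cytochrome P450, and the noncoding Gm15883 share the bases of exon 6 shown above and part of exon 4. Exon 2 of Gm15883 held 6134 to 15079 reads and exon 6 of Cyp2f2 6277 to 15202. In each of the 8 libraries the Gm15883 exon held fewer reads than the Cyp2f2 exon. At the junctions of Cyp2f2 exon 6 there were 28483 spliced reads over 8 libraries, as the mean of its 2 junctions. Gm15883 had none at any intron, and its other exons averaged 13.5 RPKM.

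Adh1, the class I alcohol dehydrogenase, has its exon 3 wholly inside exon 3 of the noncoding Gm16559. That Gm16559 exon read 200.1 to 457 RPKM, with the highest value at CT35 and the lowest at CT29, as for Adh1 exon 3 (5664 and 2532 RPKM). Its non-overlapping exons read 0.14 RPKM at CT35 and 0 in the other 7 libraries, and its introns had 1 spliced read in all.

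Cry2, a repressor of the clock, is opposite D930015M05Rik. Cry2 exon 4 read 8.30, 13.5, 27.2, 20.3, 13.0, 24.8, 24.8 and 21.4 RPKM, and D930015M05Rik exon 3 read 6.46, 8.93, 21.04, 13.99, 10.5, 18.4, 17.1 and 12.8 RPKM. Both were lowest at CT23 and highest at CT35. The noncoding gene had no spliced read, and its other exons averaged 0.88 RPKM. Neither exon was called (adjusted p = 0.30 and 0.41). Of 25 clock and clock-output genes measured, 4 had a member exon: Cry2, Nr1d1, Dbp and Rora, a nuclear receptor that activates clock genes. Rora exon 5, opposite Gm15511, differed from the rest of Rora by 0.29 and had a peak-to-trough ratio of 0.12, both on the log2 scale.

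Among coding pairs, Dlec1, known as a tumor suppressor candidate, and Ackr4, a scavenging chemokine receptor, had the members farthest above their own genes by the fixed rule. The last exon of Dlec1, tail to tail with the peroxisomal thiolase Acaa1b, read 56.3 to 121 RPKM. Elsewhere Dlec1 read 0.16 to 0.53 RPKM. No spliced read reached that exon, and the introns of Dlec1 had 0 to 8 per library. Its log2 difference from the own gene was 6.69 ± 0.53 (SD over 8 libraries).

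The first exon of Ackr4 shares 62 bases with the last exon of the main transcript of Acad11 (an acyl-CoA dehydrogenase). The pair is head to head by the spans of both transcripts. The first exon of Ackr4 read 79.1 to 136 RPKM. The other exons of Ackr4 read 0.35 to 1.40, a log2 difference of 6.31 ± 0.51. The course of this exon was nearer to Acad11 than to Ackr4, with root mean square distances of 0.14 and 0.47 on the log2 scale. Its level lay 1.67 above the sum of both genes, and 62 of its 225 bases are shared.

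The same rule named Gm10069 exon 3, at 10.6, and Gm15883 exon 2, at 8.25, both described above.

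At the other end, exon 1 of Fn1 (fibronectin) read 24.6 to 69.4 RPKM against 493 to 715 RPKM for the other exons of Fn1, a log2 difference of -3.78 ± 0.37 (SD over 8 libraries). Its partner Apol7d read 36.6 to 103 RPKM there and 0 to 0.74 RPKM elsewhere. Exon 5 of Rps25, a protein of the small ribosomal subunit opposite Ccdc84, stood at -4.01. Processed copies of ribosomal protein genes can share reads with it. Exon 1 of Gstz1, an enzyme of tyrosine breakdown opposite Pomt2, stood at -3.57, and exon 2 of Serpina1c at -5.44. Serpina1c has near-identical paralogs, so its values are uncertain. Its exon 4 held 74390 reads on average, and the exon of B430119L08Rik around it held 74412.

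The last exon of Ctsb, the lysosomal protease cathepsin B, held 7454 reads on average and differed from the other exons of Ctsb by -0.50 ± 0.72 (log2, SD over 8 libraries). At CT35 it read 84.6 RPKM against 351, and without CT35 the difference was -0.28. At CT23, CT29 and CT65 it read above the other exons. Its partner exon in Fdft1, the squalene synthase, held 821 reads and stood 2.36 below its own gene. The first exon of Ttr, the thyroxine and retinol carrier transthyretin, shares 11 bases with Gm16090 and read 1.52 below the other Ttr exons.

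The members with the smallest unadjusted p for the difference from the own gene were named after their values were seen, and none was called. Parp4 exon 22, which codes for part of a vault particle protein, read 15.7, 16.96, 23.4, 37.5, 12.7, 15.6, 37.7 and 46.0 RPKM. Elsewhere Parp4 read 3.60 to 7.04 RPKM. Exon 1 of the noncoding Gm16573, which shares 60 bases with it, read 20.4 to 86.5 RPKM, and both exons were highest at CT41, CT59 and CT65. Neither was called for the 24-h component of its level (adjusted p = 0.11 for both). On the log2 scale, Parp4 exon 22 lay 1.87 above the sum of both genes and the Gm16573 exon 2.90 above it. The shared stretch covers 60 of 196 bases of the former and 60 of 160 of the latter. The other exons of Gm16573 did not pass the filter on reads.

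Vcl (vinculin) exon 21 and Ap3m1 (a subunit of the AP-3 adaptor) exon 9 share 2087 bases, all of the former. The other exons of Ap3m1 read 4.17 RPKM at CT47 and 16.2 at CT35, with an adjusted p of 0.045 that was lost with any library left out. Exon 9 read 8.98 to 13.1 RPKM and was lowest at CT35. Its mean log2 difference from the other Ap3m1 exons was 0.26, and 0.42 without CT35. For Vcl exon 21 against its own gene these were 0.36 and 0.50. Sphk2 exon 6 moved the other way, with 0.69 and 0.58. Whether CT35 shifts last exons in general was not tested. Rrp9, a protein of the U3 small nucleolar ribonucleoprotein, has a first exon of 32 bases, 20 of them shared with Parp3. That exon read 42.8 to 96.0 RPKM and the other Rrp9 exons 4.39 to 9.43, and it had 1 spliced read over 8 libraries against 258 at the Parp3 exon.

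Many members had no spliced read of their own. Of 974 members with at least 1 annotated junction, 250 (25.7%) had no spliced read at their own junctions in any of the 8 libraries. Of 46784 non-overlapping exons that passed the same filter, 767 (1.64%) had none. Among exons of 200 or more reads on average the shares were 21.9% and 0.835%. Among coding genes they were 12.0% (92 of 767) and 1.39%, and among noncoding genes 77.8% (158 of 203) and 39.8%. Internal exons gave 17.3% and 0.188%. In 222 of the 250 cases (88.8%) the partner had 20 or more spliced reads. The same share was not worked out for the partners of all 974 members. Leaving out any library gave 25.7% to 26.6%, and the transcript of most reads gave 18.2% of 2088 exons. Members had to reach 20 reads in the shared exon, where reads of the partner can enter without strand information. Non-overlapping exons have no such partner among the main transcripts of named genes. A gene with few reads of its own can thus pass the filter through its partner only among members. How much of the contrast comes from the filter was not tested.

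**Figure D5:**
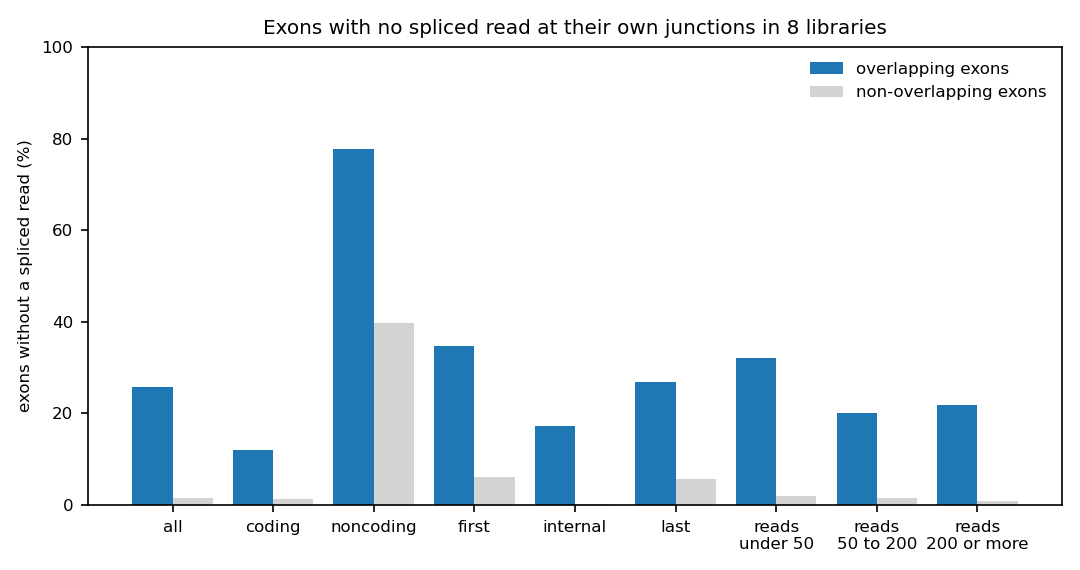
Share of exons (%) without a spliced read at their own junctions in any of 8 libraries, for overlapping (blue) and non-overlapping exons (grey), by gene type, position and mean reads. Overlapping exons are higher in every class, from 12.0% (coding) to 77.8% (noncoding), against 0.188% (internal) to 39.8% (noncoding).

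The non-overlapping exons of the 839 genes gave 8 calls among 562 genes tested (1.42%, against 1.27% of all 11156 genes). The spliced reads, tested with edgeR's quasi-likelihood test, gave 8 among 460 (1.74%, against 1.69% of 7379). With DESeq2 the latter were 16, but the share over all genes was not worked out for that test. Dbp, Elovl3, Nr1d1, Nrg4 and Tjp3, a tight junction protein opposite Apba3 (on its other exons lost without 1 library), were called both ways. Pklr, Syvn1 (an endoplasmic reticulum ubiquitin ligase) and Abca8b (an ABC transporter) were called on spliced reads only. The call of Syvn1 was lost without 6 of the 8 libraries and that of Abca8b without 3. Pitx3, a homeobox factor opposite Elovl3, was called on its other exons (peak at hour 21.4, against 22.4 for Elovl3) with no spliced read in any library.

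Counting the whole main transcript in place of the non-overlapping exons changed the calls. Of 562 genes tested both ways, 13 were called on the whole transcript and 8 on the non-overlapping exons, 6 of them both ways. Of all 839 genes 15 (1.79%) were called on the whole transcript, against 1.31% of all genes tested. These include Cebpd and Nr2c2ap, whose non-overlapping exons were not tested. Among the 562, the 7 genes called on the whole transcript alone were Thra, Abi3, Phospho1, Pklr, Rfxank, Asap2 and Hectd2os. Thra had a peak-to-trough ratio of 2.10 (log2, adjusted p = 0.028) over the whole transcript, 0.73 (adjusted p = 0.55) over its other exons and 1.13 (adjusted p = 0.17) in spliced reads. For 5 of the other genes most of the ratio was kept and the call was lost. On the log2 scale, Asap2 had 2.09 over its other exons and 2.03 over the whole transcript, Hectd2os 1.81 and 1.55, Pklr 1.35 and 1.44, Rfxank 1.26 and 1.43, and Phospho1 1.70 and 2.13. The difference between both fits of a gene was not tested. The 7 fell to between 0 and 3 when any library was left out (3 without CT35 and 0 without CT23, CT53 or CT59). The 2 called on the other exons alone were Ap3m1 and Gm14097.

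Abi3, an adaptor of actin regulation, shares all 1589 bases of the last exon of Phospho1, a phosphatase of bone mineralization. The shared exons read 14.3, 8.18, 2.98, 4.09, 14.8, 12.8, 3.88 and 8.48 RPKM (Abi3) and 23.4, 13.0, 4.48, 6.30, 24.3, 20.6, 6.05 and 13.6 RPKM (Phospho1). Both were highest at CT23 and CT47 and low at CT35, CT41 and CT59. Elsewhere Abi3 read 6.86 to 11.5 RPKM, with a peak-to-trough ratio of 0.47 (log2, adjusted p = 0.62). Over the whole transcript that ratio was 1.60 (adjusted p = 0.039).

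Gm14097, annotated as a pseudogene, and Shld1, a factor of DNA end protection, overlap head to head by 48 bases. The first exon of Shld1 held 12, 9, 125, 9, 15, 29, 61 and 4 reads and that of Gm14097 6, 9, 121, 5, 14, 25, 59 and 3. Both had their highest values at CT35 and CT59. Non-overlapping exons of Gm14097 were called (2.89, log2, adjusted p = 0.042, lost without 7 of the 8 libraries), and those of Shld1 were not (adjusted p = 0.72). No spliced read of Shld1 was seen.

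Cebpd, a C/EBP transcription factor of a single exon, overlaps Spidr, a DNA repair scaffold, by 319 of 2260 bases. It read 0.58 to 2.48 RPKM, with both values at CT35 and CT59 above all others. Its peak-to-trough ratio was 1.39 on the log2 scale, with a peak at hour 10.4 (limma adjusted p = 0.029). Spidr read 1.39 to 2.24 RPKM in its other exons with a peak-to-trough ratio of 0.21 on the log2 scale. Nr2c2ap, a nuclear receptor-associated protein, has no exon free of Rfxank, a subunit of the RFX factor of MHC class II genes. Its exon 2 was called (1.78, log2, adjusted p = 0.037) with a peak at hour 21.7. The other exons of Rfxank had a ratio of 1.26 (adjusted p = 0.11) with a peak at hour 21.4, and the spliced reads of Nr2c2ap had 0.63 (adjusted p = 0.76). The last exon of Asap2, opposite Itgb1bp1, was called (1.98, log2, adjusted p = 0.042). The 24-h component of its difference from the rest of Asap2 was 0.40 ± 0.31 (unadjusted p = 0.48).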

How the data were processed

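Polyadenylated RNA of 8 pooled mouse livers, 1 library per circadian time, was sequenced. The authors deposited per-feature tables with a lower and an upper value per exon, named min and max per the file headers, and treated here as a score because their scale is not stated. They scale as RPKM. The deposited junction tables hold whole-number counts of spliced reads. The genome build was mm9 (the submitters' processing notes), and the aligner RUM is named in the junction track lines, per the file headers. For the counting program, its strand setting and the rule separating min from max, the sources used here say nothing. Every exon value was a whole number of reads within 0.1 read (100% of values), which gave the recovered reads.

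Of 115699 transcripts 79709 (68.89%) matched a gene name in RefSeq or GENCODE M21. Opposite-strand overlaps were found by mm9 coordinates. Own and partner levels were length-weighted means over exons that overlap no exon of another named gene's main transcript. The 24-h component (cosine and sine, origin CT23, 5 residual degrees of freedom) was fitted to all features with limma 3.58.1 (trend, robust) in R 4.3.3 on log2(RPKM + 0.5), which understates changes of low values. Spliced reads, matched to annotated introns, were fitted with edgeR 4.0.16. P-values were adjusted by Benjamini-Hochberg over all features. The fits were tested on simulated data.

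Exons were named by rule: members called against their own gene (none was), the 6 with most reads, the 6 highest and 4 lowest against their own gene at 5 RPKM or more, those of clock genes, 4 pairs in which the non-overlapping exons of 1 gene only were called, and per arrangement the pair with most reads. Others were named after their values were seen. Some exons that the rule names are not reported here. The members and lists were chosen with earlier results of these data known. Alternatives changed the value, pseudocount, filter, main transcript, scaling, test, libraries and a term for internal day. Pools, lanes and times cannot be told apart.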

Additional observations from a re-analysis of the deposited data

How the results depend on the processing

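Alternatives for the unadjusted p, spliced reads at own junctions and whole transcripts, the stricter choice of non-overlapping exons, and the block of internal day were added after seeing the data. Of the recomputed summary values 134 kept their direction and stayed within 1.5 times or 1 SD, 37 moved and 2 reversed. For single exons and genes 351 calls were the same, 94 were lost and 6 gained. Without the filter on reads, calls fell to 0 of 1920 exons and 3 genes on non-overlapping exons, the unadjusted count against the own gene was 88, 619 levels were nearer the sum, 582 courses nearer the partner, and the median difference was 0.0724. With 50 reads, 79 levels were nearer the sum, 75 courses nearer the partner and 133 exons without spliced reads. With 50% or more of the exon covered, there were 3 exon calls, 2 on non-overlapping exons, 1 against the partner, 17 unadjusted, 84 nearer the sum, 68 nearer the partner, 106 without spliced reads, and a median of 0.22. With the transcript of most reads, which gives 2129 members, there were 20 calls on non-overlapping exons, 83 unadjusted, 242 nearer the sum, 318 nearer the partner, 381 without spliced reads, and a median of -0.41. DESeq2 called 16 genes on spliced reads. For none of the alternatives in this section was the share over all features worked out beside the counts of calls.

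With 1 library left out, exon calls ranged from 3 to 10, calls on non-overlapping exons from 4 to 10, on spliced reads from 5 to 11, against the partner from 2 to 3, and on the whole transcript alone from 0 to 3. The unadjusted count ranged from 35 to 53, levels nearer the sum from 137 to 149, courses nearer the partner from 143 to 152, and exons without spliced reads from 245 to 256. The median ranged from -0.14 to -0.10, and calls against the own gene stayed at 0. The causes were not tested. Members had a median of 63.4 reads per library and non-overlapping exons 51.3. With internal day as a block there were 7 exon calls, 6 on non-overlapping exons, 7 on spliced reads, 2 against the partner and 0 against the own gene (44 at an unadjusted p under 0.05, limma). The calls lost were those of Asap2 exon 28, Nr2c2ap exon 2, Ap3m1, Gm14097 and Syvn1, and Thra exon 9 was gained. Replicates of a time could not be paired, since each time has 1 library.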
